A study of Rattus norvegicus with 18 samples.

Results

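The liver RNA levels of 9 enzymes of amino acid breakdown were examined in Wistar rats with non-alcoholic steatohepatitis (NASH). The genes were Sds, Tat, Got1, Tdo2, Hal, Hpd, Gldc, Aass and Bckdha, found by gene symbol alone among the 32623 genes of the rat tables, and all 9 passed the filter on low counts that left 12904 genes to test. Libraries came from whole liver tissue of 6 control, 6 NASH and 6 NASH-CH rats, 1 library per rat, and NASH-CH denotes NASH with established cirrhosis. Male rats of the model groups received carbon tetrachloride (CCl4) by inhalation, phenobarbital in drinking water and a diet rich in fat and cholesterol (HFCD). NASH rats had CCl4 and phenobarbital for 6 weeks and then HFCD for 4 weeks, which makes 10 weeks in all. NASH-CH rats had CCl4 and phenobarbital throughout 24 weeks, and HFCD was added for the last 16 of them. Controls ate standard chow for 12 weeks and had neither agent. Hence each model group differs from controls in diet, both agents and duration together, and the effects of these cannot be told apart.

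The liver is the main site at which surplus amino acids lose their nitrogen and give carbon to glucose, ketone bodies or the citric acid cycle. Several of the enzymes are classic hormone-inducible liver genes that rise in fasting or after a protein-rich meal through glucocorticoids and glucagon and fall after insulin. Sds (serine dehydratase) makes pyruvate from serine, Tat (tyrosine aminotransferase) begins tyrosine breakdown, and Got1 (cytosolic aspartate aminotransferase) moves amino groups between aspartate and glutamate. Tdo2 (tryptophan dioxygenase) opens the tryptophan ring, Hal (histidine ammonia-lyase) removes the amino group of histidine, and Hpd (hydroxyphenylpyruvate dioxygenase) follows Tat in the tyrosine pathway. Gldc is the decarboxylase of the glycine cleavage system, Aass begins lysine breakdown in mitochondria, and Bckdha is a subunit of the branched-chain ketoacid dehydrogenase.

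Library totals ran from 19498534 to 27174015 counts in controls, from 20827770 to 29491947 in NASH and from 44680344 to 60117822 in NASH-CH, so that the NASH-CH libraries were all deeper than the others. Depth and any handling that went with it cannot be told apart from cirrhosis. Levels are given as CPM, counts scaled to a common library total after correction by the trimmed mean of M values (TMM), and they were not divided by gene length, so that they may be compared between rats but not between genes. The summed level of 7 hepatocyte markers was 133000 to 191100 CPM in controls, 95780 to 155300 in NASH and 88580 to 145000 in NASH-CH, and these genes were abundant in every rat. The library of NASH-CH rat 5 stood apart, with 45.56 CPM over 5 cholangiocyte markers against 4.869 to 13.16 in the other NASH-CH rats, and with the lowest hepatocyte sum of all. In bulk tissue, fewer cells of a type and less RNA per cell cannot be told apart.

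Sds was the only one of the 9 genes that passed the test in any comparison, and it was higher in NASH-CH than in control rats. In controls its levels (ENSRNOG00000001388) were 14.1, 18.6, 40.8, 56.5, 174 and 203 CPM. In NASH they were 135, 162, 173, 201, 269 and 317 CPM. In NASH-CH they were 142, 170, 186, 263, 324 and 343 CPM. Thus 4 of 6 controls lay below every model rat, while controls 4 and 6 were within the range of both model groups. The spread of the controls was wide, with a 14.3-fold span from lowest to highest and a coefficient of variation of 97.61%, against spans of 2.35-fold in NASH and 2.42-fold in NASH-CH.

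With limma-voom over the 12904 genes, Sds was 4.36-fold higher in NASH-CH than in controls (log2 2.13, SE 0.59, 95% CI 0.89 to 3.36, Benjamini-Hochberg adjusted p = 0.0196). All 6 NASH-CH rats were above the control median of 48.68 CPM and 3 were above every control. The estimate for NASH was almost as high, 3.87-fold (log2 1.95, SE 0.56, 95% CI 0.78 to 3.12), but its limma adjusted p was 0.06. The difference between NASH-CH and NASH itself was 0.17 on the log2 scale (95% CI -1.15 to 1.49, limma adjusted p = 0.93), an interval that leaves room for a difference of more than 2-fold in either direction. The ratio of mean levels is smaller than these folds, which average logarithms and weigh the low controls strongly. Mean Sds was 84.5 ± 82.48 CPM in controls, 210 ± 69.8 in NASH and 238 ± 84.43 in NASH-CH (SD, n = 6 each), ratios of 2.48 and 2.82.

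The Sds call in NASH-CH was lost with edgeR (log2 1.49, adjusted p = 0.0511) and with only the NASH-CH and control rats in the limma fit (2.12, adjusted p = 0.0591), and it was kept whichever single rat was left out (log2 1.75 to 2.49, limma adjusted p 0.00379 to 0.0433). In NASH, leaving out control 6 or control 4 turned the difference into a call (limma adjusted p = 0.0111 and 0.0425).

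**Figure D1:**
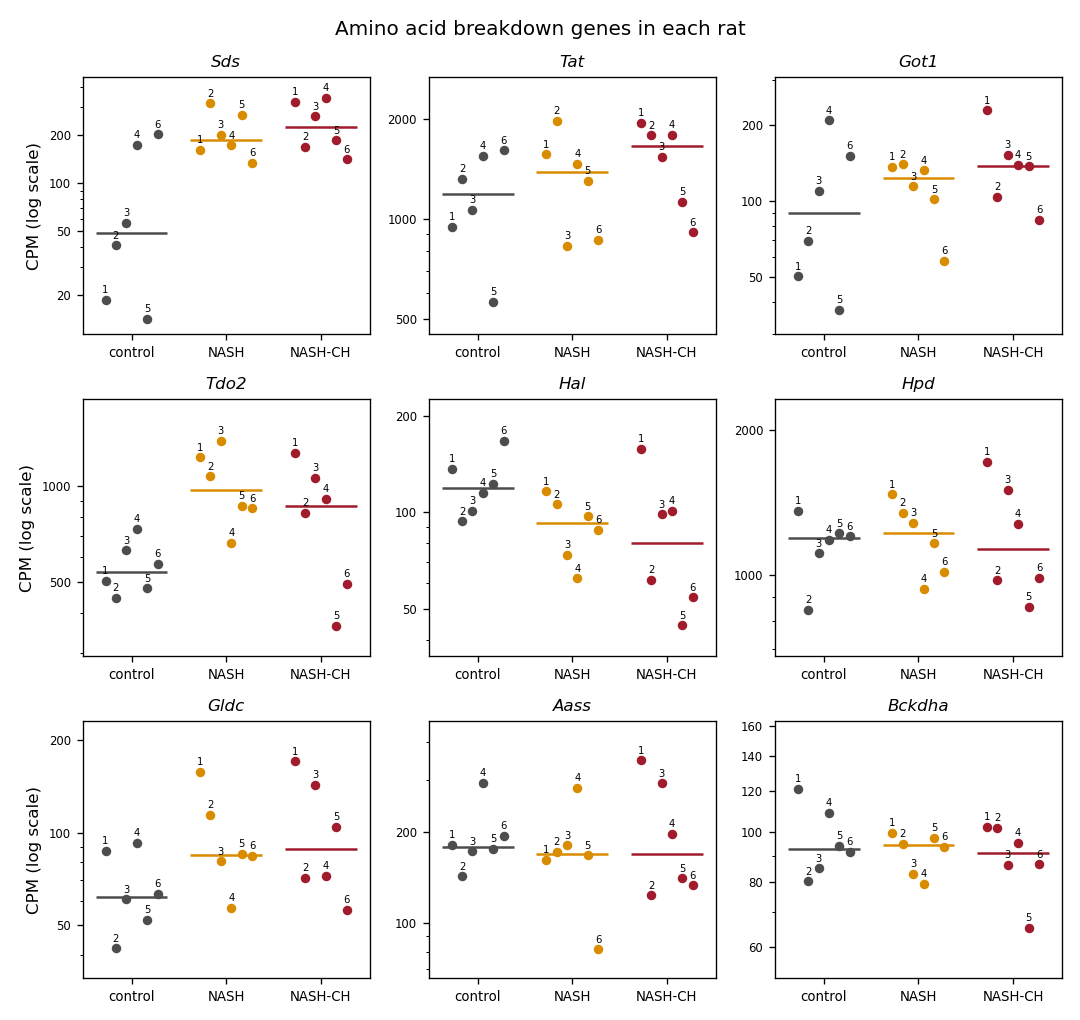
TMM-scaled CPM (log scale) of the 9 genes in each of the 18 rats, with 1 point per rat, its replicate number beside it and a line at the median of each group of 6. For Sds, controls 1, 2, 3 and 5 lie below all model rats, and for the other genes the groups overlap.

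The aminotransferases Tat and Got1 had higher medians in both model groups, but neither passed the test. Tat (ENSRNOG00000016348) ran from 563.1 CPM through a median of 1193 to 1611 in controls, from 832.6 through 1386 to 1979 in NASH and from 911.9 through 1662 to 1947 in NASH-CH. The ranges overlapped broadly, and only control 5 lay under the lowest model rat. Log2 differences from controls were 0.21 in NASH (SE 0.27, limma adjusted p = 0.685) and 0.41 in NASH-CH (SE 0.28, limma adjusted p = 0.319). Got1 (ENSRNOG00000016356) ran from 37.29 through 89.64 to 208 CPM in controls, from 58.17 through 123.2 to 139.8 in NASH and from 84.37 through 137.8 to 228.1 in NASH-CH. Its controls spanned a 5.58-fold range that held every NASH rat. The log2 differences were 0.35 in NASH (SE 0.35, limma adjusted p = 0.606) and 0.63 in NASH-CH (SE 0.38, 95% CI -0.15 to 1.42, limma adjusted p = 0.259). Control 5 was the lowest control for Sds, Tat and Got1 alike.

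The 250 bases before the start sites of Tat, Got1 and Tdo2 are shown. They are RefSeq promoters of the rat build GRCr8, read 5′ to 3′ along the gene, and capitals mark matches on either strand to CCAAT, known as a CCAAT box, or to TATAAA, known as a TATA box. Tat lies at chr19:54856354-54856603 on the plus strand, Got1 at chr1:252329872-252330121 on the minus strand and Tdo2 at chr2:169585587-169585836 on the minus strand.
Tat: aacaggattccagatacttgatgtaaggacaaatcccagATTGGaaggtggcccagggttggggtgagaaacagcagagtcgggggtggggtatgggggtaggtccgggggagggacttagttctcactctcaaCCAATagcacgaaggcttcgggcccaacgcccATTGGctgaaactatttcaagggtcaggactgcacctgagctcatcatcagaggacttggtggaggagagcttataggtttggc
Got1: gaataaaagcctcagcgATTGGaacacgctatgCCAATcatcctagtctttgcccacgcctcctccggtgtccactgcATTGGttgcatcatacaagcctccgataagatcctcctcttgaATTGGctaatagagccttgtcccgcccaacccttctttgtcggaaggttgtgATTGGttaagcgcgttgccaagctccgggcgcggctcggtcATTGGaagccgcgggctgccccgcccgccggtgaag
Tdo2: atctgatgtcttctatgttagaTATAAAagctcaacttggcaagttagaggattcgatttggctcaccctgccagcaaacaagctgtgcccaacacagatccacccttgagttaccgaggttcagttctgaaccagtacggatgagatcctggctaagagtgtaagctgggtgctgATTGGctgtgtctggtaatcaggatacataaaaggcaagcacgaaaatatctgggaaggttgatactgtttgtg
RefSeq promoters were matched by symbol for 6 of the 9 genes. Got1 held 6 CCAAT matches, and 0.0329% of the 33469 rat promoters scanned held at least 6. Tat held 3, and Aass also held 3, a number reached by 2.52% of promoters. Gldc held 2, Tdo2 1 and Hpd none, and 34% of all promoters held at least 1. The TATAAA match of Tdo2 lay at -228 to -223 from the start site, and 12.9% of promoters held this motif. Also searched on both strands were TGTTCT (the core of a glucocorticoid receptor element), TGACG (the core of a cyclic AMP response element) and TGTTTAC (a forkhead factor motif), held by 17.5%, 18.2% and 3.21% of promoters. Aass had 1 match to TGACG, and the 6 windows held no other. Sequence farther from the start sites was not searched, and Hal, Sds and Bckdha had no promoter to search. No matches overlapped, and a match is only a match of letters.

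Tdo2 had higher levels in NASH than in control rats in most animals, but it missed the threshold. Tdo2 (ENSRNOG00000011612) ran from 446.4 through a median of 538.3 to 735.6 CPM in controls, from 666.2 through 972 to 1393 in NASH and from 365.4 through 870.6 to 1273 in NASH-CH. In NASH, 5 of 6 rats were above every control, while in NASH-CH rat 5 was the lowest of all 18 and the range covered that of the controls. The difference was 1.79-fold in NASH (log2 0.84, SE 0.25, 95% CI 0.32 to 1.36, limma unadjusted p = 0.00323, adjusted p = 0.0668) and log2 0.46 in NASH-CH (SE 0.25, 95% CI -0.07 to 0.99, limma adjusted p = 0.221). The direct difference between NASH-CH and NASH was -0.37 (95% CI -0.92 to 0.17, limma adjusted p = 0.49). Without NASH-CH rat 5, Tdo2 passed in NASH (log2 0.84, limma adjusted p = 0.026), since that rat enters the shared estimate of spread, and its NASH-CH difference came to 0.66 (adjusted p = 0.0517). The NASH-CH difference of Tdo2 passed in limma without TMM (0.71, adjusted p = 0.0234) and with sample weights (0.64, adjusted p = 0.045). In NASH, Tdo2 passed with DESeq2 (log2 0.85, adjusted p = 0.016) and did not with edgeR (0.86, adjusted p = 0.0576). By limma, its NASH difference passed without TMM (1.06, adjusted p = 0.0114) and with sample weights (0.80, adjusted p = 0.0148). It also passed with only the NASH and control rats in the limma fit (0.84, adjusted p = 0.0236).

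Hal had lower medians in both model groups, with no call. Hal (ENSRNOG00000004502) ran from 93.58 through a median of 118.7 to 167 CPM in controls, from 62.11 through 92.6 to 116.3 in NASH and from 44.32 through 79.96 to 158.1 in NASH-CH. NASH-CH rats 2, 5 and 6 were the lowest of their group, and rat 1 was near the highest control. The log2 differences were -0.44 in NASH (SE 0.24, limma adjusted p = 0.301) and -0.60 in NASH-CH (SE 0.25, 95% CI -1.13 to -0.08, limma unadjusted p = 0.0268, adjusted p = 0.106). The NASH-CH difference depended on single rats, at -0.81 (limma adjusted p = 0.0189) without NASH-CH rat 1 and -0.45 (adjusted p = 0.207) without NASH-CH rat 5.

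Gldc was higher in both model groups by estimate, but not past the threshold. Gldc (ENSRNOG00000011599) ran from 42.14 through a median of 62.02 to 92.7 CPM in controls, from 57.16 through 84.59 to 157.2 in NASH and from 56.3 through 88.34 to 169.9 in NASH-CH. Its groups overlapped, with rat 1 the highest in both model groups. The log2 differences were 0.52 in NASH (SE 0.27, limma adjusted p = 0.263) and 0.56 in NASH-CH (SE 0.28, limma adjusted p = 0.177). Without TMM, the NASH-CH difference of Gldc passed (0.83, limma adjusted p = 0.025), a scaling that moved the median of all genes to 0.27.

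The remaining enzymes, Hpd, Aass and Bckdha, had nearly equal medians in the 3 groups. Hpd (ENSRNOG00000001338) had medians of 1192, 1222 and 1130 CPM in the control, NASH and cirrhotic groups, and single rats lay between 845.7 and 1718. Log2 differences from controls were 0.06 (95% CI -0.29 to 0.40) in NASH and 0.05 (SE 0.17, 95% CI -0.31 to 0.41) in NASH-CH. For Aass (ENSRNOG00000039494), the medians were 179.4, 170 and 169.3 CPM and single rats lay between 81.62 and 347.6, with differences of -0.19 (95% CI -0.76 to 0.37) and 0.01 (95% CI -0.58 to 0.60). Bckdha (ENSRNOG00000020607) varied least, with medians of 92.79, 94.19 and 90.96 CPM, single rats between 65.34 and 120.8, and differences of -0.08 (95% CI -0.32 to 0.16) and -0.11 (95% CI -0.36 to 0.14). The intervals of Hpd and Bckdha in both comparisons with controls lie within 0.5 on the log2 scale of 0, whereas those of Aass do not.

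**Figure D2:**
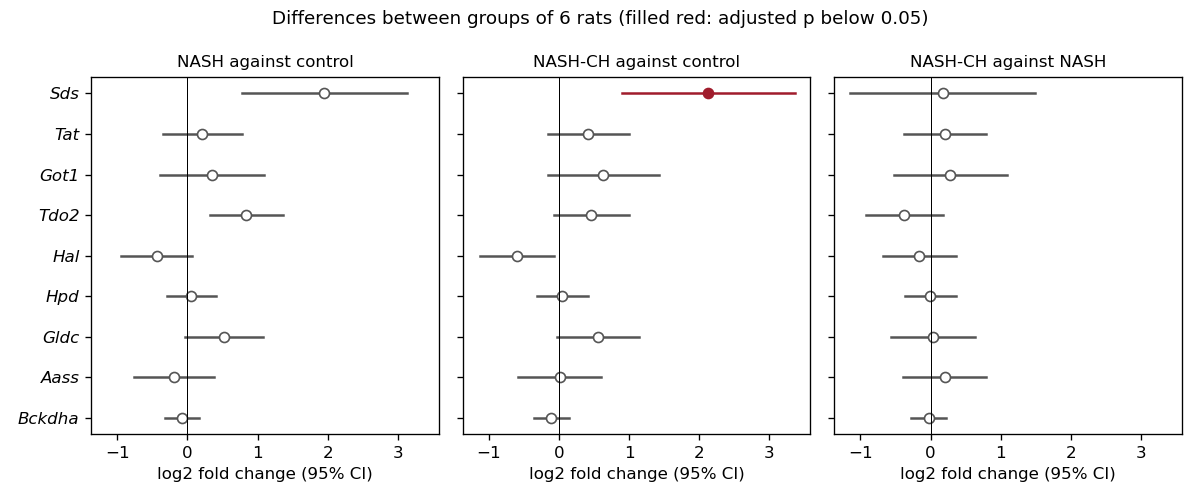
Log2 fold changes of the 9 genes with 95% confidence intervals from 1 limma-voom fit of 18 rats, for NASH against control, NASH-CH against control and NASH-CH against NASH. Sds in NASH-CH against control (2.13) is the only filled point, and Sds has the widest interval of the genes in each panel.

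Over the 9 genes, 0 passed in NASH against control by limma, where 3.12% of all tested genes did (403 genes). At an unadjusted p under 0.05, 2 of the 9 did (Sds and Tdo2, both higher) and 21.5% of all genes. With edgeR 0 and with DESeq2 1 of the 9 passed, against 652 and 1228 of all 12904 genes. In NASH-CH against control 1 of the 9 passed with limma, where 17% of all tested genes did (2192 genes), and 8.38% were called higher and 8.6% lower. At an unadjusted p under 0.05, 2 of the 9 (Sds and Hal) and 31.7% of all genes passed. There edgeR called 0 and DESeq2 1, Sds again, against 2449 and 2841 of all 12904 genes. In NASH-CH against NASH 0 of the 9 passed, against 4.2% of all genes, with 0 at an unadjusted p under 0.05 (17.5% of all genes), 0 with edgeR (617 of all genes) and 0 with DESeq2 (949 of all genes). The median log2 difference of the 9 was 0.21, 0.41 and 0.04 in the 3 comparisons, and that of all tested genes was 0.01 in each. No gene of the 9 had groups without overlap, which 3.16%, 7.11% and 3.46% of all genes had. The comparisons with controls share the same 6 control rats. Leaving out NASH-CH rat 5 gave 1, 1 and 0 called members (Tdo2 in NASH, Sds in NASH-CH).

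Levels of the 9 genes were mostly related across rats inside the groups, though not in each group taken alone. With the group means removed, Pearson's r of log2 CPM over the 18 rats was above 0 for all 36 pairs, with a median of 0.444. In single groups of 6 rats, 6 of the 36 pairs were below 0 in controls, 7 in NASH and 1 in NASH-CH, such as Tat and Hpd in controls (-0.29) and Aass and Bckdha in NASH (-0.551). These values are descriptions, since all genes of a rat share its library, its scaling and its mix of cells. Over the 18 rats the highest values were 0.877 for Sds and Got1, 0.874 for Hal and Hpd, 0.795 for Tdo2 and Hpd, 0.751 for Tat and Got1, 0.748 for Hpd and Gldc, 0.725 for Tdo2 and Hal and 0.719 for Tat and Sds. Bckdha was near 0 with Sds (0.03) and with Got1 (0.01).

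**Figure D3:**
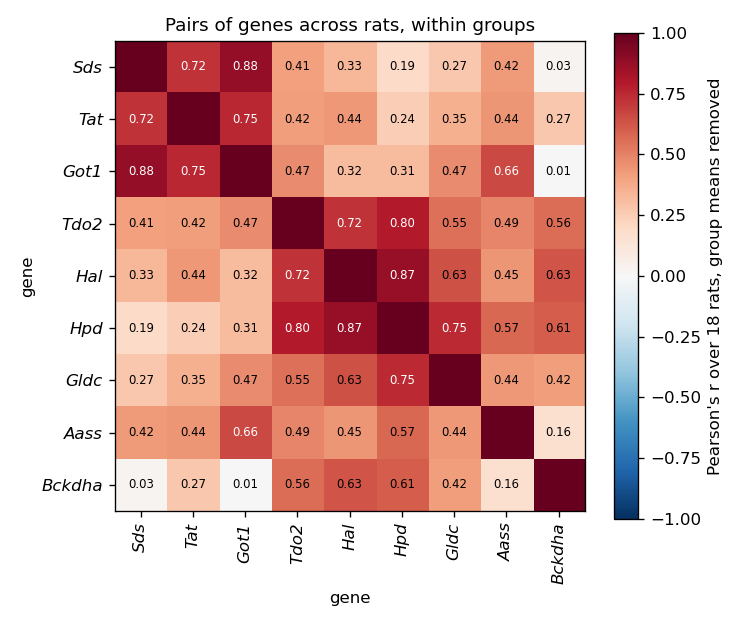
Pearson's r for each pair of the 9 genes over 18 rats after removal of group means (colour and printed value). The darkest cells off the diagonal are Sds with Got1 (0.88) and Hal with Hpd (0.87), and the palest are Bckdha with Got1 (0.01) and with Sds (0.03).

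The link between Sds and Got1 was present in each group taken alone, at r = 0.968 among controls, 0.498 among NASH rats and 0.821 among NASH-CH rats (n = 6 each), and Tat and Sds gave 0.881, 0.533 and 0.746. Hal and Hpd gave 0.708, 0.738 and 0.971, and Tdo2 and Hpd gave 0.307, 0.874 and 0.891. Other pairs depended more on the group. Sds and Hpd gave -0.0938, 0.364 and 0.81, Hal and Sds 0.248, 0.273 and 0.862, and Gldc and Got1 0.409, 0.243 and 0.904. Over the 12 model rats alone, with group means removed, r for Sds was 0.641 with Hpd and 0.658 with Hal, close to its 0.671 with Got1 and 0.635 with Tat. The low levels of control 5 and the high levels of controls 4 and 6 recurred in Sds, Tat and Got1. Most rats held a highest or lowest value of their group among the 9 genes, and some held several. NASH rat 4 was the lowest of its group for 5 (Tdo2, Hal, Hpd, Gldc and Bckdha), as for 21.9% of all genes. NASH-CH rat 1 was the highest of its group for 8 of the 9 genes, all but Sds, as it was for 15.1% of all tested genes. Control 2 was the lowest control for 6 (Tdo2, Hal, Hpd, Gldc, Aass and Bckdha), as for 16.7% of all genes. NASH-CH rat 5 was the lowest for Tdo2, Hal, Hpd and Bckdha, as for 26.9% of all genes, but not for Sds, Tat, Got1, Gldc or Aass.

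**Figure D4:**
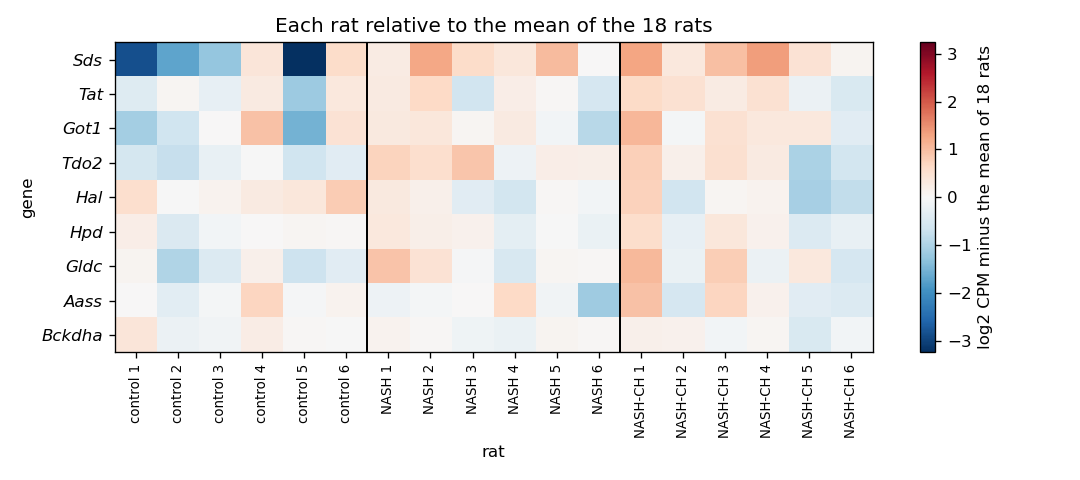
Log2 CPM of each gene in each rat minus the gene's mean over the 18 rats, with vertical lines between groups of 6. Controls 1, 2, 3 and 5 are blue for Sds, NASH-CH rat 1 is red for all 9 genes, and NASH-CH rat 5 is blue for Tdo2 and Hal.

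The genes whose levels followed each member most closely over all 18 rats, group differences included, differed between members. Genes with a placeholder symbol, such as those that begin with LOC, were left out of this ranking. Sds followed the metallothioneins Mt2A (r = 0.922) and Mt1 (0.897), which bind metals, and the cationic amino acid transporter Slc7a2 (0.909). Tat and Got1 shared Ppargc1a (0.84 and 0.829), a coactivator of fasting genes, and Tat was also close to Psd4 (0.858) and to the circadian gene Noct (0.813), Got1 to Mapkapk2 (0.856) and Adamts4 (0.826). Hal was closest to the gluconeogenic enzyme Fbp1 (0.924), to Pxmp2 (0.875) and to Gcsh of the glycine cleavage system (0.865). Hpd was closest to liver glutaminase Gls2 (0.856), Kmo of tryptophan breakdown (0.842) and Cps1 of the urea cycle (0.822). Bckdha was closest to Fah, the last enzyme of tyrosine breakdown (0.942), Abat (0.913) and Lias (0.9). For Tdo2 the closest were Pigu (0.849), Slc31a2 (0.846) and Spink1l (0.828), for Aass Egfr (0.836), Kbtbd8 (0.756) and Plaa (0.755), and for Gldc Lamp1 (0.774), Galk2 (0.754) and Clcn4 (0.746).

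Other genes of the same pathways mostly did not pass the test. Of 68 listed, 63 were found and 61 were tested, in 7 lists by pathway. In NASH against control 1 of the 61 passed (1.64%, against 3.12% of all genes), and 9 did at an unadjusted p under 0.05, as did 21.5% of all genes. In NASH-CH against control 3 passed, all lower (4.92%, against 8.6% of all genes called lower). There edgeR called 3 of the 61 and 2449 of all 12904 genes, and DESeq2 called 8 of the 61 and 2841 of all genes. In NASH-CH against NASH 1 passed (1.64%, against 4.2%). The median log2 differences of the 61 were -0.05, -0.10 and -0.10, and those of the 9 genes were 0.21, 0.41 and 0.04. The 9 genes and these lists were chosen with earlier results of these data known, so this contrast is only a description.

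The genes that passed belonged to separate pathways. Kynu (kynureninase), downstream of Tdo2, ran from 173 through a median of 209.4 to 273.8 CPM in controls and from 76.18 through 113.4 to 174.1 in NASH-CH, and it fell by 0.87 on the log2 scale (SE 0.23, limma adjusted p = 0.0158). Glud1 (glutamate dehydrogenase), which receives the nitrogen of transaminases such as Tat and Got1, ran from 608.7 through 734.4 to 785.6 CPM in controls and from 291.4 through 519.9 to 594 in NASH-CH. The Glud1 groups did not overlap, and the gene fell by 0.57 (SE 0.14, limma adjusted p = 0.0109). Gcat, an enzyme of threonine and glycine breakdown, ran from 15.6 through 25.64 to 32.41 CPM in controls and from 11.52 through 15.44 to 21.37 in NASH-CH, a log2 difference of -0.62 (SE 0.17, limma adjusted p = 0.021).

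Pipox, a peroxisomal enzyme of lysine and sarcosine breakdown, was higher in NASH, at 95.03 through 117.7 to 145.7 CPM against 69.65 through 82 to 107.4 in controls (log2 0.51, SE 0.12, limma adjusted p = 0.0285). Acmsd, a decarboxylase of the kynurenine pathway, was higher in NASH-CH than in NASH (log2 1.23, SE 0.34, limma adjusted p = 0.046), with NASH-CH medians of 5.711 against 2.569 CPM and a highest value of 12.08 in NASH-CH rat 5. None of the listed genes of phenylalanine and tyrosine (6 tested), histidine (3) or branched-chain breakdown (18) passed in any comparison by limma or edgeR, while at an unadjusted p under 0.05 the branched-chain list held 2, 5 and 2 genes and DESeq2 called 1, 2 and 0 of them. For phenylalanine and tyrosine, 0, 1 and 1 genes had an unadjusted p under 0.05 and DESeq2 called 0, 1 and 0, and for histidine all these counts were 0. Of all 12904 genes, 21.5%, 31.7% and 17.5% had an unadjusted p under 0.05, and DESeq2 called 1228, 2841 and 949. With library size only, Kynu and Gcat missed the threshold (log2 -0.61, limma adjusted p = 0.0529, and -0.36, adjusted p = 0.05), as did Acmsd (1.26, adjusted p = 0.0537), which was also lost with thinned counts (1.11, adjusted p = 0.0503) and with only the groups compared (1.23, adjusted p = 0.121). Some of these calls were lost when single rats were left out: that of Pipox without any of 5 (limma adjusted p up to 0.0796), that of Gcat without control 1 or 4 (up to 0.0508) and that of Acmsd without any of 14, among them NASH-CH rat 5 (log2 0.98, adjusted p = 0.0535).

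**Figure D5:**
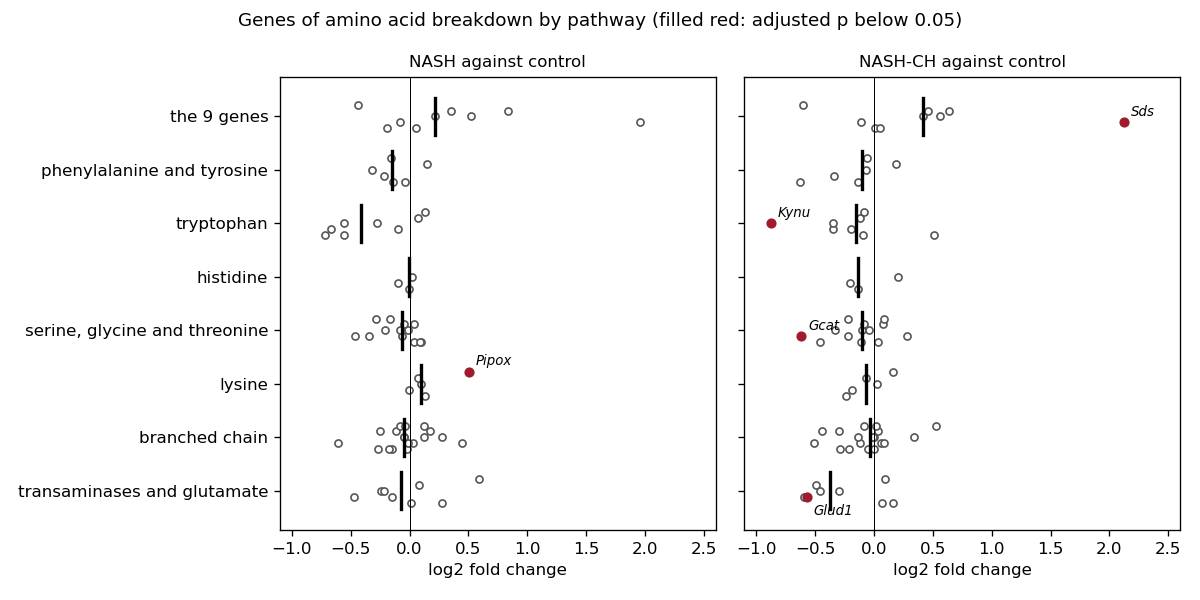
Log2 fold changes (limma-voom) of the 9 genes and of 61 other tested genes of amino acid breakdown, 1 point per gene, with a bar at the median of each list, for each model group against control. Sds is the highest point in both panels, and the filled points are Pipox in NASH and Sds, Kynu, Gcat and Glud1 in NASH-CH.

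Among 12 hormone receptors and transcription factors of liver metabolism, 1 passed in NASH-CH against control and the same 1 in NASH-CH against NASH (8.33% of the list, against 17% and 4.2% of all genes), with 0 in NASH against control (2 at an unadjusted p under 0.05, 0 with edgeR and 1 with DESeq2). In NASH-CH against control 5 had an unadjusted p under 0.05, and edgeR called 2 and DESeq2 3. Of all 12904 genes, 21.5% in NASH and 31.7% in NASH-CH had an unadjusted p under 0.05. Over all genes edgeR called 652 and 2449, and DESeq2 1228 and 2841. The gene called by limma was Cebpb, a factor of the CCAAT/enhancer-binding family. Cebpb ran from 42.15 through a median of 58.78 to 73.26 CPM in controls, from 42.88 through 69.17 to 82.22 in NASH and from 16.19 through 36.01 to 37.53 in NASH-CH. All 6 NASH-CH rats were below every other rat. Cebpb fell by 0.89 against controls (SE 0.20, limma adjusted p = 0.00575) and by 1.03 against NASH (SE 0.20, limma adjusted p = 0.00484). Ppargc1a had medians of 6.205, 7.563 and 11.26 CPM in the 3 groups and did not pass in NASH-CH (log2 0.96, limma adjusted p = 0.146).

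Of 7 genes widely used as glucocorticoid targets, 3 were called higher in NASH-CH than in controls (Per1, Mt1 and Mt2A), against 8.38% of all genes called higher, and 0 in NASH (3 at an unadjusted p under 0.05, 0 with edgeR and 1 with DESeq2). In NASH-CH edgeR and DESeq2 called 1 of the 7 each, and 2449 and 2841 of all 12904 genes. In NASH edgeR and DESeq2 called 652 and 1228 of all genes, and 21.5% had an unadjusted p under 0.05. The other 4 did not pass in NASH-CH, with log2 differences of 0.34 for Fkbp5, 0.14 for Tsc22d3, 0.55 for Sgk1 and -0.35 for Dusp1, whose median was 198.7 CPM against 281.4 in controls. Mt2A ran from 11.9 through a median of 72.15 to 243.3 CPM in controls, from 124.8 through 250.1 to 311.8 in NASH and from 110 through 219.1 to 401.1 in NASH-CH. As with Sds, its control range was wide and reached into the model groups. The log2 differences in NASH-CH were 2.02 for Mt2A (SE 0.66, limma adjusted p = 0.0432), 1.75 for Mt1 (SE 0.56, limma adjusted p = 0.04) and 0.83 for the clock gene Per1 (SE 0.23, limma adjusted p = 0.0194). The calls of the metallothioneins, which metals and inflammation also induce, were lost with edgeR (Mt2A 1.37, adjusted p = 0.101, and Mt1 1.21, adjusted p = 0.0964) and when any of 13 rats (Mt2A) or 8 rats (Mt1) was left out, and that of Per1 was lost without control 5 (log2 0.72, limma adjusted p = 0.0513).

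Markers of other cells moved beside these results. In NASH-CH against control, 4 of 6 macrophage markers were called lower (Marco, Cd163, Csf1r and Clec4f), as were 3 of 7 hepatocyte markers (Alb, Apoa1 and Ttr), where 8.6% of all genes were. Of the 4 hepatocyte markers not called, Apob (11520 against 8465 CPM) and Tf (24470 against 23710) had higher medians in NASH-CH. Serpina1 (6147 against 7513 CPM) and Fgb (4444 against 4530) had lower ones. Of the 2 macrophage markers not called, Cd68 had a higher median in NASH-CH (13 against 10.25 CPM) and Adgre1 a lower one (15.28 against 17.4). By staining of protein, the paper reported more CD68- and CD163-positive macrophages in NASH-CH than in control liver. Called higher in NASH-CH against control were 3 of 8 stellate and myofibroblast markers and 1 of 4 endothelial markers (Vwf), where 8.38% of all genes were. Of the 3 endothelial markers not called, Kdr had a lower median in NASH-CH (61.55 against 78.85 CPM). Stab2 (70.22 against 58 CPM) and Cdh5 (21.51 against 21.07) had higher ones. In NASH against control, 1 macrophage marker (Marco) and 1 hepatocyte marker (Apoa1) were called lower, where 199 of all 12904 genes were. The summed macrophage level was 198 to 374.9 CPM in controls, 155.5 to 229.4 in NASH and 132.1 to 196.8 in NASH-CH. The summed stellate level was 249.2 to 342.8 CPM in controls, 206.1 to 287.2 in NASH and 261.4 to 426.9 in NASH-CH. Most of it was Col3a1, with medians of 224.7, 183.5 and 290.3 CPM in the 3 groups. Sds rose and Hal had lower levels in the same tissue, and the part of the cell mix in either was not tested. Summed markers of periportal hepatocytes (6 genes), the zone in which Sds and Hal are known to be expressed, were 6103 to 8737 CPM in controls, 7071 to 8910 in NASH and 6402 to 9695 in NASH-CH, and those of pericentral hepatocytes (8 genes) were 1371 to 3090, 2049 to 3688 and 1325 to 3402. The ranges of both zone sums overlapped between all groups. Few genes made up much of these sums: Cps1 had medians of 3687, 4112 and 4010 CPM in the 3 groups and Cyp2e1 709.5, 1908 and 1779. Of the 5 periportal markers tested, 0 were called by limma or edgeR against controls (in NASH 2 at an unadjusted p under 0.05 and 1 with DESeq2, in NASH-CH 0 and 0), whereas the pericentral list was mixed. Of its 8 genes Cyp2e1 and Slc1a2 were called higher in NASH (log2 1.32 and 2.25), and in NASH-CH Cyp2e1 was called higher (0.98) and Glul lower (-1.13). Of all 12904 genes, limma called 204 higher in NASH, and in NASH-CH 8.38% higher and 8.6% lower. An unadjusted p under 0.05 was found for 21.5% of all genes in NASH and 31.7% in NASH-CH, and DESeq2 called 1228 and 2841.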

How the data were processed

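Total RNA of rat liver was made into stranded mRNA libraries (TruSeq, per the labels). The authors trimmed adapters, aligned reads to Rnor_6.0 with STAR in its 2-pass mode, quantified gene models of Ensembl release 95 by RSEM, and deposited the resulting expected counts in 1 table per rat, not normalized for depth or length. Tool versions are not given in the sources used here.

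Expected counts were rounded, filtered with filterByExpr, scaled by TMM (edgeR 4.0.16) and tested with limma-voom 3.58.1 in R 4.3.3, following the study's methods, which name TMM, voom and moderated statistics. The filter and the use of 1 fit of all 18 rats with a mean per group were chosen here. P-values were adjusted by Benjamini-Hochberg over 12904 genes, with a threshold of 0.05. Level and correlation values are TMM-scaled CPM, the latter as log2 CPM with a prior count of 2. Fits were checked on simulated counts. Tried beside this were DESeq2 1.42.0, the quasi-likelihood test of edgeR, other scalings and filters, sample weights, thinned counts, a replicate block and leaving out each rat.

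The 9 genes and all lists were chosen with earlier results of these data known. Named were all 9 genes, listed genes with an adjusted p under 0.05 (up to 4 per list and comparison by size of change) and the 3 tested genes with the highest r for each of the 9, placeholder symbols left out. Listed genes of breakdown numbered 63 in the tables. Where a listed symbol had more than 1 row (Dhtkd1 and Nr3c1), the first row was used. Groups came from the labels. Rats are separate animals by the study's methods, and p-values measure the spread between rats. Replicate numbers are shared between groups but did not pair the rats. Promoters are from RefSeq (GRCr8), a build other than that of the counts.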

Additional observations from a re-analysis of the deposited data

Results flagged for a closer look

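Of 54 sets of 6 rats checked for a single distant value (the 9 genes and 9 listed genes that passed), where chance alone marks about 1 in 20, Aass in the controls held one. Control 4 was at 293 CPM and the next control at 195, a gap of 0.651 of the whole range. The same rat was the highest control for Tdo2, Gldc and Got1 but not for Hpd or Bckdha. Among the genes named above, the effect against controls differed between NASH-CH and NASH for Acmsd and Cebpb, by the limma test of NASH-CH against NASH, in which the shared controls cancel. The NASH-CH effect minus the NASH effect was 1.23 on the log2 scale for Acmsd (adjusted p = 0.046), and that call was lost when any of 14 single rats was left out. For Cebpb it was -1.03 (adjusted p = 0.00484), and all 6 NASH-CH rats were below all 6 NASH rats.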

How the results depend on the processing

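Sds, the 1 member called in NASH-CH against control (by limma 1 of 9, also without any single rat, where it was 1 to 2), was lost with edgeR, with only the groups compared and at an adjusted p under 0.01 (0 of 9). Called were 3 members with library size only (Sds, Tdo2 and Gldc) and 2 with sample weights (Sds and Tdo2). In NASH against control 0 became 1 with DESeq2 and with only the groups compared, 2 with library size only and with weights, and 0 to 1 without single rats. NASH-CH against NASH gave 0 throughout.

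Of all genes, 403 were called in NASH against control, and 652 with edgeR, 1228 with DESeq2, 865 with library size only, 268 with no filter, 644 with only the groups compared, 1509 with weights, 39 at an adjusted p under 0.01 and 128 (without control 3) to 982 (without control 6) leaving out single rats. In NASH-CH the 2192 calls became 5495 with no filter, 1408 with only the groups compared and 849 at 0.01. In NASH-CH against NASH the 542 became 949 with DESeq2, 367 with library size only, 2649 with no filter, 349 with only the groups compared, 239 at 0.01 and 346 to 591 without single rats. Without TMM, calls split into 785 higher and 80 lower in NASH (204 and 199 with it), 2781 and 489 in NASH-CH (1082 and 1110), and 119 and 248 between the models (234 and 308), and the median of all genes was 0.229, 0.268 and 0.0401 (0.0072, 0.0127 and 0.00684 with it).

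Over 10 settings the 27 differences of the 9 genes kept direction and side of the threshold in 250 instances, lost a call in 2, gained one in 9 and changed sign in 9. Leaving out single rats gave 459, 0, 4 and 23. With library size only, Aass in NASH came to 0.0263 and Bckdha to 0.152 in NASH and 0.149 in NASH-CH, all less than that median. Hpd in NASH-CH against NASH came to 9.92e-05 with at least 10 counts per rat, 0.0172 with DESeq2, 0.0202 with edgeR, 0.0257 with library size only and 0.0504 with weights, and Bckdha to 0.0355 with weights. Without single rats, Hpd ranged from -0.0289 to 0.135 in NASH, -0.0609 to 0.136 in NASH-CH and -0.116 to 0.0726 between the models, Aass from -0.341 to 0.000561 and from -0.169 to 0.131, and between the models Gldc from -0.133 to 0.2 and Bckdha from -0.0756 to 0.0423. The cause was not tested.

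A replicate block gave 444, 2095 and 540 called genes and 0, 1 and 0 members. Same-numbered rats deviated together weakly, at mean correlations of 0.0516, 0.0732 and 0.0154 in the 3 comparisons, and in each 2 of 6 correlated best with their own number, so the numbers are not read as a pairing. NASH-CH libraries were the deepest, and thinning all libraries to the lowest total gave 452, 2058 and 507 calls and left Sds at 2.12 in NASH-CH (adjusted p = 0.0158).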
